A study of Mus musculus with 24 samples.

Results

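The brush border hydrolases are digestive enzymes anchored in the apical membrane of the absorptive cells of the small intestine. 10 of their genes, chosen by symbol from the deposited ileal table, are described here out of the 40481 genes that table holds: Lct, Sis, Mgam and Treh, which encode enzymes that split sugars, Alpi, a phosphatase, and Mep1a, Mep1b, Anpep, Dpp4 and Enpep, which encode peptidases. All 10 were found, and all 10 passed the filter on low values in the ileum, so none was left out of a test there. RNA of ileum and liver was sequenced 10 weeks after 75% of the small bowel of C57BL/6 mice had been resected, and the study asked whether GW3965, given by mouth at a low dose, acts on its receptors in the intestine.

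Villin-Cre GW3965 mice (Abca1 fl/fl X Villin-Cre) carried loxP sites in both copies of Abca1 and a Cre recombinase driven by the Villin promoter, which is active in intestinal epithelium, and received GW3965, a compound that activates the liver X receptors (LXR). Villin-Cre vehicle mice had the same alleles and received the carrier. Floxed GW3965 mice (Abca1 fl/fl, without Cre) received the agonist, and floxed vehicle mice the carrier. GW3965 was dosed by mouth at 1 mg/kg/day on 2 days a week over the last 5 weeks, and the carrier was carboxymethyl cellulose at 0.5%. Each group had 3 libraries per tissue, 24 in all. Every group had been operated on and carried the floxed alleles, so there is no unresected or wild-type comparison. The labels give no age, and they do not tie a library to an animal, so a p-value here weighs a difference against the spread of libraries, and part or all of that spread may be technical. The control carries no Cre, so the effect of Cre itself and that of the deletion cannot be told apart.

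Enterocytes acquire these enzymes as they leave the crypts and move up the villus, and the finger-like microvilli of their surface hold them in reach of food. Long sugars and peptides are first cut by pancreatic enzymes in the lumen, and the hydrolases make the last cuts, next to the transporters that take up glucose, amino acids and short peptides. Their genes are read under the control of a small set of factors (HNF4, CDX2 and GATA proteins among them), and each enzyme has its own preferred stretch of the bowel. ABCA1, the gene product deleted here, exports cholesterol from cells and is itself switched on by LXR, the sterol-sensing receptors that GW3965 binds.

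The ileal libraries held 17.0 to 24.2 times 1000000 assigned reads and the liver libraries 26.5 to 32.3 times 1000000. Ileal Abca1 averaged 53.8 ± 0.158 CPM (reads of the gene per 1000000 assigned reads) in Villin-Cre GW3965, 28.3 ± 2.47 in Villin-Cre vehicle, 372 ± 105 in floxed GW3965 and 57.2 ± 2.83 in floxed vehicle libraries (SD, n = 3 each), so it was lower in each Villin-Cre group than in the floxed group of the same treatment, as their labels say; reads outside the deleted stretch and from cells other than epithelium are part of these sums. Libraries of a group lay close together. Over genes with 100 to 2000 reads in a pair of libraries, the variance between libraries was 2.55 to 3.62 times the Poisson variance in 10 of the 12 ileal pairs within groups, against 9.20 to 58.1 times in the 54 pairs between groups. Replicate 3 of the floxed GW3965 ileum stood apart from its group (6.80 and 7.20 times), as did replicate 1 of the floxed GW3965 liver (8.12 and 8.20 times). Results that rest on these libraries are also given without them. Counts of calls are further given after averaging libraries that lay close, which leaves 1 value per group and 2 in floxed GW3965.

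The 10 hydrolases together took a larger share of the ileal RNA with GW3965 in both genotypes. They made up 3.38%, 3.29% and 3.33% of the assigned reads in Villin-Cre GW3965 libraries, against 1.74%, 1.72% and 1.76% in Villin-Cre vehicle libraries. In floxed mice they made up 2.40%, 2.45% and 2.25% with GW3965, against 1.33%, 1.34% and 1.30% with vehicle. The 4 groups did not overlap, and both Villin-Cre groups lay above the floxed group of the same treatment. In a piece of whole ileum, a smaller number of cells of a type and less RNA per cell cannot be told apart, and this holds for every ileal level given here. Set against Vil1, which encodes the microvillus protein villin, the sum of the 10 was 8.87 ± 0.145 times the Vil1 level in Villin-Cre GW3965 and 6.47 ± 0.125 times in Villin-Cre vehicle libraries, and 9.84 ± 0.993 times in floxed GW3965 and 6.34 ± 0.170 times in floxed vehicle libraries (SD, n = 3 each). The treatment groups therefore stayed apart relative to villin, while the genotypes overlapped with GW3965 (8.71 to 8.99 in Villin-Cre, 8.70 to 10.5 in floxed) and with vehicle (6.33 to 6.56 and 6.14 to 6.46). The overlap with GW3965 came from replicate 3 of the floxed group, at 8.70 times, since its other libraries, at 10.5 and 10.3 times, lay above all Villin-Cre libraries, the opposite order of the genotypes to that of the share of reads. Vil1 itself was higher with GW3965, by 0.48 ± 0.05 log2 in Villin-Cre and 0.21 ± 0.05 in floxed mice. Between genotypes Vil1 was higher in Villin-Cre mice by 0.64 ± 0.05 with GW3965 and 0.36 ± 0.05 with vehicle (limma adjusted p of 0.0065 or lower in each). A ratio to Vil1 thus also carries the change of Vil1, which is not a steady reference here.

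The members did not all follow the sum. Relative to Vil1, Mep1b stood at 0.252 to 0.256 times in Villin-Cre GW3965 and 0.270 to 0.283 times in Villin-Cre vehicle libraries, and Enpep with vehicle at 0.497 to 0.517 times in Villin-Cre and 0.580 to 0.629 times in floxed libraries. With GW3965, Lct, Alpi (0.403 to 0.407 against 0.248 to 0.274 times), Treh and Sis lay higher in every Villin-Cre than in every floxed library. Mgam (1.50 to 1.56 against 1.96 to 2.05 times) and Mep1b lay lower, and the other members overlapped. With vehicle, Alpi, Treh, Mep1a, Mep1b and Anpep lay higher in Villin-Cre libraries, Lct, Mgam and Enpep lower, and Sis and Dpp4 overlapped.

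Tested 1 by 1 with limma on log2(CPM + 0.5), 10 of 10 hydrolases were higher with GW3965 in Villin-Cre mice (adjusted p under 0.05), where 21.5% of all 18656 tested genes were higher. Their median log2 difference was 1.22, against -0.11 over all tested genes. In floxed mice 9 of 10 were higher with GW3965, against 14.7% of all genes, with a median of 0.78 against -0.08. Among mice given GW3965, 9 of 10 were higher in Villin-Cre than in floxed ileum, against 13.6% of all genes (median 0.61 against -0.24). Among mice given vehicle, 8 of 10 were higher in Villin-Cre ileum, against 9.61% of all genes, and Lct was the 1 that was lower, against 30.7% of all genes (median 0.42 against -0.18). The 4 comparisons share libraries pairwise, so they are not independent of each other. With the close libraries averaged, the calls fell to 4 of 10 (2.72% of all genes higher), 2 of 10 (0.584%), 3 of 10 (1.31%) and 0 of 10 (0.0214% higher and 0.0107% lower) in the same order of comparisons; the 4 were Lct, Alpi, Treh and Mep1a, the 2 were Alpi and Treh, and the 3 were Lct, Alpi and Treh. In the last of these comparisons 2 of 10 had an unadjusted limma p under 0.05 on the averaged values, against 12.4% of all genes.

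The direction of the genotype calls over all genes depended on the scaling. Of all calls, 26.1% were higher in Villin-Cre mice with GW3965 and 23.8% with vehicle, but 52.2% and 58.1% after scaling by the median of gene ratios, where the median of all genes became -0.00 and 0.04 log2. For GW3965 against vehicle in floxed mice the share was 41.2%, and 53.5% after that scaling. The hydrolases called kept their direction under it, and Mep1b (0.43, with GW3965) and Enpep (0.35, with vehicle) were added as higher in Villin-Cre mice.

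**Figure D1:**
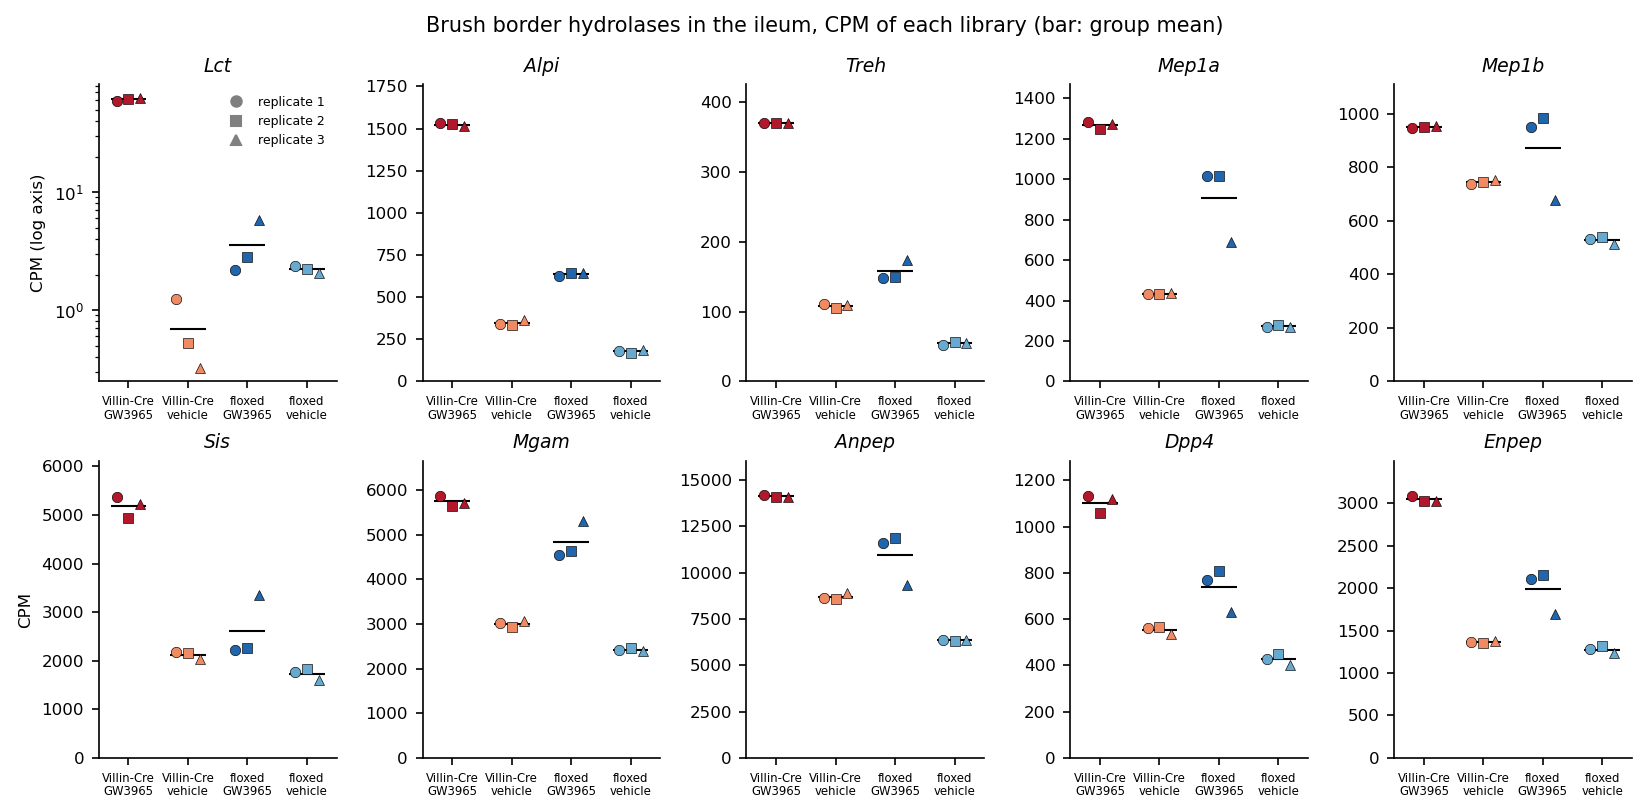
Level of each of the 10 hydrolases in every ileal library, in CPM, by group; points are libraries (circle, square and triangle for replicates 1, 2 and 3) and bars are group means. The Lct axis is logarithmic and the others start at 0. All genes but Mep1b show the Villin-Cre GW3965 libraries highest. Lct shows them at 58.9 to 62.7 CPM against 5.75 CPM or less in the 9 other libraries.

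Lactase showed the widest range of all. Lct, which encodes lactase-phlorizin hydrolase, the enzyme that splits milk sugar and is normally made most in the proximal small bowel, stood at 58.9, 61.7 and 62.7 CPM in Villin-Cre GW3965 libraries, against 1.23, 0.526 and 0.323 CPM (24, 9 and 6 reads) in Villin-Cre vehicle libraries. In floxed mice it stood at 2.19, 2.83 and 5.75 CPM with GW3965, against 2.37, 2.24 and 2.05 CPM with vehicle. The Villin-Cre GW3965 libraries were thus far above the other 9, the Villin-Cre vehicle libraries were the lowest, and the floxed groups overlapped.

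The log2 difference with GW3965 was 5.76 ± 0.28 in Villin-Cre mice (SE, 54.2-fold on the CPM + 0.5 scale, which understates the change of a gene this low; limma adjusted p = 3.3e-11) and 0.49 ± 0.28 in floxed mice (adjusted p = 0.19). The floxed value was 0.14 without replicate 3, the highest library of that group, and 0.75 without replicate 1. The difference between the 2 responses, tested as the interaction of genotype and GW3965, was 5.27 ± 0.39 (adjusted p = 4.2e-08). Between genotypes, Lct was 4.01 ± 0.28 log2 higher in Villin-Cre than in floxed mice given GW3965 (16.1-fold, adjusted p = 5.5e-09), whereas with vehicle it was lower in Villin-Cre mice by a log2 difference of -1.26 ± 0.28 (adjusted p = 0.0017), which was -0.66 with a pseudocount of 2 (adjusted p = 0.0089). It was the 1 hydrolase of the 10 with a sign that turned between the 2 genotype comparisons.

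Treh, which encodes trehalase, the enzyme for the sugar of fungi and insects, was almost the same in the libraries of a group, except floxed GW3965. It stood at 370.3, 370.0 and 370.4 CPM in Villin-Cre GW3965 libraries, against 110.2, 105 and 109 CPM in Villin-Cre vehicle libraries. It stood at 149, 149.8 and 174 CPM in floxed GW3965 libraries, against 52.5, 56.8 and 54.6 CPM in floxed vehicle libraries. The 4 groups did not overlap. The log2 difference with GW3965 was 1.77 ± 0.06 in Villin-Cre mice (adjusted p = 6e-13) and 1.52 ± 0.06 in floxed mice (adjusted p = 9.2e-12), and that between Villin-Cre and floxed mice was 1.23 ± 0.06 with GW3965 (adjusted p = 1.3e-10) and 0.98 ± 0.06 with vehicle (adjusted p = 4.2e-09). The interaction, 0.26 ± 0.09 (adjusted p = 0.032), lost its call when any of 7 of the 12 libraries was left out (adjusted p 0.059 to 0.082).

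Alpi, the intestinal alkaline phosphatase, which removes phosphate groups from food and from bacterial lipopolysaccharide, followed the same order of groups as Treh. It stood at 1533, 1525 and 1514 CPM in Villin-Cre GW3965 libraries, against 340.2, 332 and 365 CPM in Villin-Cre vehicle libraries. It stood at 627, 646 and 641 CPM in floxed GW3965 libraries, against 182, 171 and 188 CPM in floxed vehicle libraries. Again no groups overlapped, and here replicate 3 of the floxed GW3965 group lay between the other 2. The log2 difference with GW3965 was 2.14 ± 0.05 in Villin-Cre mice (4.41-fold, adjusted p = 8.7e-15) and 1.82 ± 0.05 in floxed mice (3.53-fold, adjusted p = 1.5e-13). Between genotypes it was 1.26 ± 0.05 with GW3965 (adjusted p = 1.2e-11) and 0.94 ± 0.05 with vehicle (adjusted p = 7.1e-10), and the interaction was 0.32 ± 0.07 (adjusted p = 0.0023). Mice have a close homologue of Alpi, Akp3, and the counting could have shared reads between them, so the level of Alpi is uncertain to that extent.

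The promoters of these 3 genes are shown because Lct, Treh and Alpi had the largest log2 differences between Villin-Cre and floxed mice given GW3965. Each is the window from 250 bases before to 50 after the annotated start, from RefSeq (GRCm38.p6), 5′ to 3′ on the gene's strand, with matches to the motifs searched in capitals. The 4 short motifs were GATAA (GATA factors), TTTAT (CDX), CAAAGT (a partial HNF4 site) and CAAAGTCCA (HNF4), on both strands, where CAAAGT lies inside CAAAGTCCA and TTTATC holds both TTTAT and the reverse of GATAA. The LXR repeat (AGGTCA, 4 bases of any kind, AGGTCA) was also searched and had no match in the 9 windows found. Of the 32851 promoter windows of this length in the table, 25.4% held GATAA, 40.0% TTTAT, 14.4% CAAAGT, 0.475% CAAAGTCCA and 0.015% the LXR repeat. The windows lie at chr1:128328269-128328568 (minus strand) for Lct, chr9:44672983-44673282 (plus strand) for Treh and chr1:87101557-87101856 (minus strand) for Alpi.
Lct: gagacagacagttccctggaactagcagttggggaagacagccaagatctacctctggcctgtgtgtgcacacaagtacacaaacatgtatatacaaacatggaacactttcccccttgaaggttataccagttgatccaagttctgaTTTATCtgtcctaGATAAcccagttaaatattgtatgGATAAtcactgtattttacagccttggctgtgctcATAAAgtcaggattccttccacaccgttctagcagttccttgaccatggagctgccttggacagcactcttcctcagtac
Treh: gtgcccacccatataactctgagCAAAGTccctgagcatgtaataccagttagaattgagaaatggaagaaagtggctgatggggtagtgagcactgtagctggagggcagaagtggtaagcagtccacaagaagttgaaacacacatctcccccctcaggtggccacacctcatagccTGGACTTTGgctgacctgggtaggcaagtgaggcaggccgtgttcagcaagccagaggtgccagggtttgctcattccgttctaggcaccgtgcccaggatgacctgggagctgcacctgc
Alpi: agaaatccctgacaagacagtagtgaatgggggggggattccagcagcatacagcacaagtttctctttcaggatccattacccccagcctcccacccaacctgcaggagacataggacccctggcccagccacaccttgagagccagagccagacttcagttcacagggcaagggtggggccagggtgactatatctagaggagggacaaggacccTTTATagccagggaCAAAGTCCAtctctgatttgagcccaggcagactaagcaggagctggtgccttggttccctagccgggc
Lct holds GATAA at -101 (reverse), -89 and -65 and TTTAT at -102 and -30 (reverse), counted to the first base of each match from the start. Treh holds CAAAGT at -227 and CAAAGTCCA at -71 (reverse), and Alpi holds TTTAT at -33 and CAAAGTCCA at -19. The letters ATAAA or TTTAT near -30 are also letters of a TATA box. A match of letters is a description of the window and was not tested as a site of binding.

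Sis and Mgam encode sucrase-isomaltase and maltase-glucoamylase, related enzymes that digest sucrose and the fragments of starch. Both were higher with GW3965 in each genotype. Sis stood at 5367, 4934 and 5225 CPM in Villin-Cre GW3965 libraries, against 2183, 2155 and 2037 CPM in Villin-Cre vehicle libraries. It stood at 2220.1, 2258 and 3345 CPM in floxed GW3965 libraries, against 1769.7, 1831 and 1611 CPM in floxed vehicle libraries. The Villin-Cre GW3965 libraries were highest by a wide gap, and in floxed mice replicate 3 lay far above the other 2 libraries given GW3965. Given GW3965, Sis was higher by 1.28 ± 0.11 log2 in Villin-Cre mice (adjusted p = 4.2e-08) and by 0.56 ± 0.11 in floxed mice (adjusted p = 0.00082), or 0.37 without replicate 3 (adjusted p = 2.4e-08). The interaction was 0.72 ± 0.16 (adjusted p = 0.002). Between genotypes Sis was higher in Villin-Cre mice by 1.01 ± 0.11 with GW3965 (adjusted p = 1.1e-06) and by 0.29 ± 0.11 with vehicle (adjusted p = 0.046), a call that was lost when any of 9 libraries was left out (adjusted p 0.06 to 0.16).

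Mgam stood at 5874, 5654 and 5710.4 CPM in Villin-Cre GW3965 libraries, against 3012, 2925 and 3063 CPM in Villin-Cre vehicle libraries. It stood at 4556, 4639 and 5297 CPM in floxed GW3965 libraries, against 2417, 2459 and 2403 CPM in floxed vehicle libraries. No groups overlapped, and the response was of like size in both genotypes. Mgam differed with GW3965 by 0.94 ± 0.06 log2 in Villin-Cre mice (adjusted p = 8.8e-10) and 0.99 ± 0.06 in floxed mice (adjusted p = 1.4e-09), with an interaction of -0.05 ± 0.08 (adjusted p = 0.68). Between genotypes it was 0.25 ± 0.06 with GW3965 (adjusted p = 0.0019) and 0.31 ± 0.06 with vehicle (adjusted p = 0.00059).

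Within a library the ratio of Sis to Mgam, in CPM, was 0.914, 0.873 and 0.915 in Villin-Cre GW3965, against 0.725, 0.737 and 0.665 in Villin-Cre vehicle libraries. It was 0.487, 0.487 and 0.632 in floxed GW3965, against 0.732, 0.745 and 0.670 in floxed vehicle libraries. The ratio was thus above that of the vehicle libraries in every Villin-Cre library given GW3965 and below it in every floxed library given GW3965. In an exact two-sided permutation test over libraries both treatment comparisons gave p = 0.1, the smallest value that 3 against 3 libraries allow, and adjusted p = 0.114 over the 8 ratio comparisons made. The Villin-Cre and floxed vehicle libraries did not differ beyond their spread (exact permutation p = 0.6, difference in means -0.00699).

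Between Villin-Cre and floxed mice given GW3965, Sis and Mgam differed by 1.01 and 0.25 log2, so Mgam was not among the largest. Their promoters are shown on the same terms as those above. They lie at chr3:72967814-72968113 (minus strand) for Sis and at chr6:40628581-40628880 (plus strand) for Mgam.
Sis: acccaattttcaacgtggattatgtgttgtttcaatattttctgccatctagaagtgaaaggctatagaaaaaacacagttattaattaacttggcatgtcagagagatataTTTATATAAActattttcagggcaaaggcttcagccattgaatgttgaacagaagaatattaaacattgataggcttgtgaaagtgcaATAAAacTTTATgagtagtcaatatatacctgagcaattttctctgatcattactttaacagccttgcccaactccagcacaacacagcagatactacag
Mgam: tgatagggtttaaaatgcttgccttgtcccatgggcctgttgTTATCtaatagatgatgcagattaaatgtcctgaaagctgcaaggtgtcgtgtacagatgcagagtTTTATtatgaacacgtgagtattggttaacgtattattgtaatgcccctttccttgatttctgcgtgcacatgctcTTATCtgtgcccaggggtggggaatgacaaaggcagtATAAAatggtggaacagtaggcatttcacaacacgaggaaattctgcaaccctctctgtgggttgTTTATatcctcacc
Sis holds TTTAT at -138, -133 (reverse), -50 (reverse) and -43. Mgam holds GATAA at -208 and -66 (both reverse) and TTTAT at -142, -29 (reverse) and 37. Of the 9 hydrolase windows found in the table, which held none for Mep1b, 5 held GATAA, 7 TTTAT and 3 CAAAGT. The window of Anpep begins 12849 bases inside the gene as GENCODE draws it, so it belongs to a different annotated start.

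Mep1a and Mep1b encode the alpha and beta subunits of meprin, a metalloprotease of the microvillus membrane, and they did not move in step. Mep1a lies at chr17:43474324-43502812 (minus strand). Mep1a stood at 1284, 1248 and 1274 CPM in Villin-Cre GW3965 libraries, against 432, 432 and 436 CPM in Villin-Cre vehicle libraries. It stood at 1018, 1015 and 689 CPM in floxed GW3965 libraries, against 269, 281 and 267 CPM in floxed vehicle libraries. Mep1a thus had separate groups, with replicate 3 of the floxed GW3965 group the lowest of the libraries given GW3965.

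Mep1b stood at 946, 951 and 955 CPM in Villin-Cre GW3965 libraries, against 738, 743 and 751 CPM in Villin-Cre vehicle libraries. It stood at 949, 984 and 677 CPM in floxed GW3965 libraries, against 531, 540.5 and 511 CPM in floxed vehicle libraries. The genotypes overlapped with GW3965, where replicate 3 of the floxed group lay below all Villin-Cre libraries of both treatments and the other 2 lay among or above those given GW3965.

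The log2 difference of Mep1a with GW3965 was 1.55 ± 0.10 in Villin-Cre mice (adjusted p = 1.4e-09) and 1.71 ± 0.10 in floxed mice (adjusted p = 1.3e-09). That of Mep1b was 0.35 ± 0.10 in Villin-Cre mice (adjusted p = 0.0048), the smallest of the 10 there, and 0.70 ± 0.10 in floxed mice (adjusted p = 2e-05). The interaction missed the threshold for Mep1a (-0.16 ± 0.14, adjusted p = 0.42) and for Mep1b (-0.35 ± 0.13, adjusted p = 0.057). Without replicate 3 of the floxed GW3965 group both passed it, at -0.35 (adjusted p = 1.4e-06) and -0.52 (adjusted p = 4.4e-10). Between genotypes Mep1a was higher in Villin-Cre mice by 0.51 ± 0.10 with GW3965 (adjusted p = 0.00053; 0.32 without that library) and by 0.67 ± 0.10 with vehicle (adjusted p = 6.2e-05). Mep1b was higher by 0.50 ± 0.10 with vehicle (adjusted p = 0.00053), while with GW3965 the difference was 0.15 ± 0.10 (adjusted p = 0.21), or -0.02 without replicate 3 and 0.25 without replicate 2 of the floxed GW3965 group (adjusted p = 0.038).

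The ratio of Mep1a to Mep1b in a library was 1.36, 1.31 and 1.33 in Villin-Cre GW3965, against 0.586, 0.581 and 0.581 in Villin-Cre vehicle libraries. It was 1.07, 1.03 and 1.02 in floxed GW3965, against 0.508, 0.520 and 0.522 in floxed vehicle libraries. All 6 libraries given GW3965 had more reads of Mep1a than of Mep1b and all 6 given vehicle had fewer, and in this ratio replicate 3 of the floxed GW3965 group lay with its group. Each of the 4 comparisons of this ratio gave an exact two-sided permutation p of 0.1, the smallest that the design allows (adjusted p = 0.114).

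**Figure D2:**
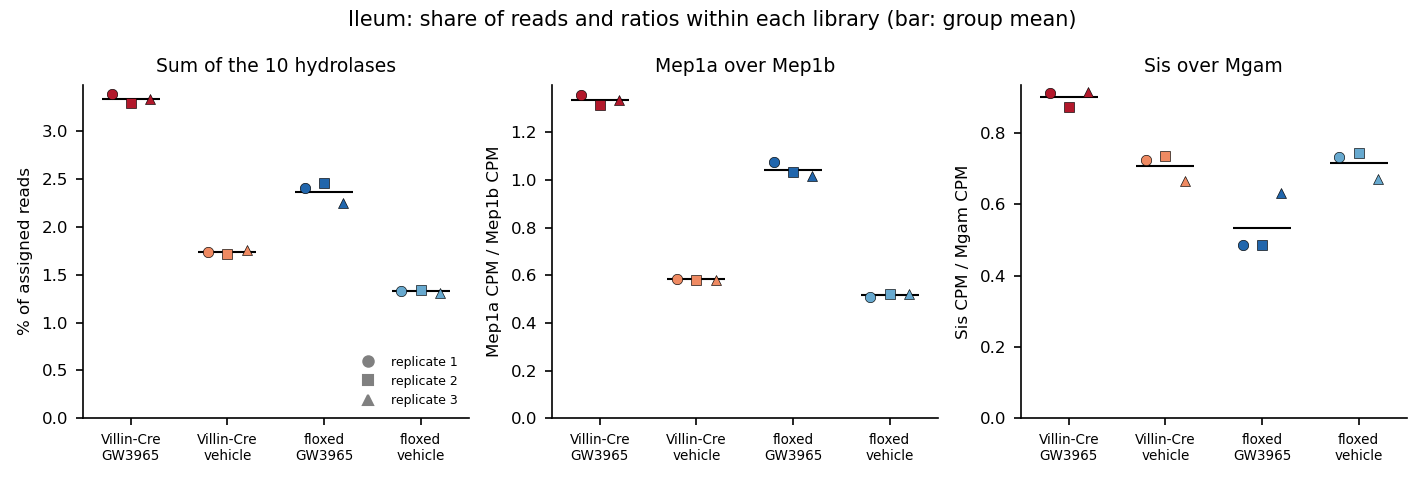
Sum of the 10 hydrolases as % of assigned reads (left), ratio of Mep1a to Mep1b CPM (middle) and ratio of Sis to Mgam CPM (right) in each ileal library, with group means as bars and axes that start at 0. The meprin ratio is above 1 in all 6 libraries given GW3965, and the Sis to Mgam ratio is highest in Villin-Cre GW3965 (0.873 to 0.915) and lowest in floxed GW3965 libraries (0.487 to 0.632).

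Anpep, Dpp4 and Enpep encode peptidases that trim peptides from the amino end: aminopeptidase N, the most abundant of the 10 enzymes in these libraries, dipeptidyl peptidase 4, which also inactivates the incretin hormones, and glutamyl aminopeptidase, which also acts on angiotensin. They lie at chr7:79821803-79861059 (Anpep), chr2:62330073-62412231 (Dpp4) and chr3:129269175-129332720 (Enpep), all on the minus strand (GENCODE, GRCm38). Anpep stood at 14165, 14087 and 14079 CPM in Villin-Cre GW3965 libraries, against 8608, 8591 and 8895 CPM in Villin-Cre vehicle libraries. It stood at 11614, 11876 and 9328 CPM in floxed GW3965 libraries, against 6383, 6314 and 6364 CPM in floxed vehicle libraries. The groups were separate, and replicate 3 of the floxed GW3965 group lay nearer to the Villin-Cre vehicle libraries than to its own group. Given GW3965, Anpep differed by 0.70 ± 0.08 log2 in Villin-Cre mice (adjusted p = 9.4e-07) and 0.78 ± 0.08 in floxed mice (adjusted p = 7.2e-07), and between genotypes it was 0.38 ± 0.08 with GW3965 (adjusted p = 0.00072) and 0.45 ± 0.08 with vehicle (adjusted p = 2e-04). The interaction was -0.08 ± 0.11 (adjusted p = 0.64), and -0.19 without that library (adjusted p = 0.0011).

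Dpp4 stood at 1130.3, 1060.4 and 1120.4 CPM in Villin-Cre GW3965 libraries, against 561, 564 and 535 CPM in Villin-Cre vehicle libraries. It stood at 771, 809 and 630.5 CPM in floxed GW3965 libraries, against 426, 448 and 403 CPM in floxed vehicle libraries. No groups overlapped. The log2 difference with GW3965 was 1.00 ± 0.07 in Villin-Cre mice (adjusted p = 6.1e-09) and 0.78 ± 0.07 in floxed mice (adjusted p = 3.1e-07), and between genotypes 0.59 ± 0.07 with GW3965 (adjusted p = 4.8e-06) and 0.38 ± 0.07 with vehicle (adjusted p = 6e-04). Its interaction, 0.21 ± 0.10, missed the threshold (adjusted p = 0.14) but passed it without replicate 2 of the floxed GW3965 group (0.28, adjusted p = 0.039), and was 0.10 without replicate 3.

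Enpep stood at 3086, 3024 and 3028 CPM in Villin-Cre GW3965 libraries, against 1369, 1358 and 1379.9 CPM in Villin-Cre vehicle libraries. It stood at 2107, 2151 and 1697 CPM in floxed GW3965 libraries, against 1282, 1318 and 1229.8 CPM in floxed vehicle libraries. The vehicle groups lay close to each other without overlapping. Enpep differed with GW3965 by 1.15 ± 0.07 log2 in Villin-Cre mice (adjusted p = 6e-10) and 0.63 ± 0.07 in floxed mice (adjusted p = 2.6e-06), with an interaction of 0.52 ± 0.10 (adjusted p = 0.00066). Between genotypes it was 0.63 ± 0.07 with GW3965 (adjusted p = 1.6e-06) and 0.10 ± 0.07 with vehicle (adjusted p = 0.28), and the vehicle comparison passed without replicate 3 of the floxed GW3965 group (adjusted p = 0.01), a library outside it.

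The response to GW3965 was larger in Villin-Cre than in floxed mice for 5 of the 10 hydrolases, Lct, Sis, Enpep, Alpi and Treh, against 14.6% of all tested genes with an interaction above 0, and smaller for none, against 18.4% below 0. The median interaction was 0.23 log2, against -0.03 over all genes. Vil1 (0.28 ± 0.08, limma adjusted p = 0.0091) and Epcam (0.23 ± 0.06, adjusted p = 0.0087) also had an interaction above 0. These are near the values of Alpi and Treh, so an interaction of that size was not particular to the hydrolases. Of the 10 markers shared by all intestinal epithelium, 5 were above 0 and 2 below. Leaving out replicate 3 of the floxed GW3965 group added Mep1a, Mep1b and Anpep, all 3 with the smaller response in Villin-Cre mice, for 8 calls in all (16.7% of all genes above 0 and 22.2% below). With the close libraries averaged 0% of the 18656 genes passed in this test in either direction, and 1 hydrolase had an unadjusted limma p under 0.05, against 11.2% of all genes.

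**Figure D3:**
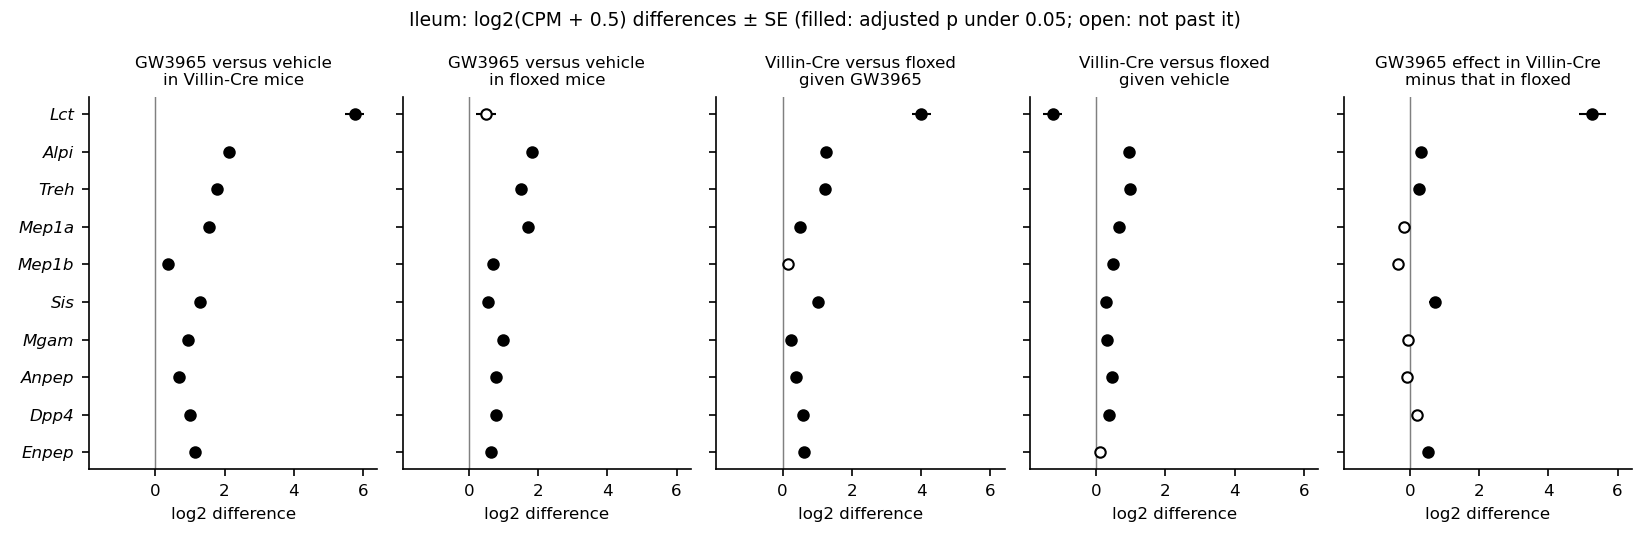
Log2(CPM + 0.5) difference ± SE of each hydrolase in the ileum, for the effect of GW3965 in Villin-Cre and in floxed mice, that of genotype with GW3965 and with vehicle, and the difference between the genotypes in the GW3965 effect. Filled points have a limma adjusted p under 0.05; Lct spans 5.76 to -1.26 across the panels while the other 9 stay between -0.35 and 2.14.

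Per kilobase of exon, Anpep was the most abundant of the 10 in every group, at 3412 ± 11.5 CPM per kilobase in Villin-Cre GW3965, 2103.5 ± 41.2 in Villin-Cre vehicle, 2646 ± 339 in floxed GW3965 and 1537 ± 8.62 in floxed vehicle libraries (SD, n = 3 each). Lct was the least abundant in every group, at 9.53, 0.108, 0.560 and 0.346 CPM per kilobase. In Villin-Cre GW3965 libraries the level per kilobase then ran from Sis (693 ± 29.6) through Mgam, Alpi and Enpep (647 ± 7.40) to Mep1a (368 ± 5.43), Mep1b, Treh (181 ± 0.110) and Dpp4 (175 ± 5.99). Neighbours from Sis to Enpep overlapped in their libraries, as did Mep1a and Mep1b. In floxed vehicle libraries the order was Mgam (279 ± 3.31), Enpep (271 ± 9.46), Sis, Mep1b, Mep1a (78.9 ± 2.16), Alpi (77.2 ± 3.72), Dpp4 and Treh (26.7 ± 1.05), where Mgam overlapped Enpep and Mep1a overlapped Alpi. Villin-Cre vehicle and floxed GW3965 libraries shared another order, Mgam, Enpep, Sis, Mep1b, Alpi, Mep1a, Dpp4 and Treh, with overlaps from Enpep to Mep1b in the Villin-Cre vehicle libraries and from Enpep to Mep1a in the floxed GW3965 libraries. Alpi thus stood in place 4 in Villin-Cre GW3965 and in place 7 in floxed vehicle libraries. Dividing by the longest transcript in place of all exons exchanged neighbours in 6 places of the Villin-Cre GW3965 order and in 2 places of each other order, and left Anpep the highest and Lct the lowest.

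Other enzymes of the same membrane were read from a list of 15, of which 14 were found and 12 tested (Folh1 and Tmprss15 had a library at 0). All 12 were higher with GW3965 in Villin-Cre mice (median log2 difference 1.60), and 7 were higher and 3 lower in floxed mice (median 0.57). Naaladl1, a peptidase with the largest level of the list, averaged 7256 ± 94.9 CPM in Villin-Cre GW3965 and 2518 ± 54.7 in Villin-Cre vehicle libraries, and 3519 ± 65.0 in floxed GW3965 and 1787 ± 32.7 in floxed vehicle libraries. Its log2 differences with GW3965 were 1.53 ± 0.05 and 0.98 ± 0.05. Enpp7, which digests sphingomyelin, averaged 385 ± 1.78 CPM in Villin-Cre GW3965 and 74.8 ± 1.49 in Villin-Cre vehicle libraries, and 104 ± 5.64 in floxed GW3965 and 113 ± 1.97 in floxed vehicle libraries, with an interaction of 2.47 ± 0.07 (adjusted p = 1.2e-12). In that respect it had the order of groups seen in Lct, with Villin-Cre GW3965 far above the rest and Villin-Cre vehicle lowest.

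Plb1, the brush border phospholipase B, had 336.6 ± 12.2 CPM in Villin-Cre GW3965 and 4.36 ± 0.639 in Villin-Cre vehicle libraries. In floxed mice it had 35.0, 37.7 and 5.01 CPM with GW3965, and 113 ± 2.54 CPM with vehicle. It was thus higher with GW3965 in every Villin-Cre library and lower in every floxed library, with an interaction of 8.66 ± 0.65 (adjusted p = 4.3e-08). Over the list 11 of 12 genes had an interaction above 0 and none below, with a median of 1.01, against 14.6% of all genes above 0 and 18.4% below. Between genotypes 11 were higher in Villin-Cre mice with GW3965 (median 1.52), and 6 higher and 4 lower with vehicle (median 0.20). With the close libraries averaged, 9, 0, 7 and 0 of the 12 stayed higher in the 4 comparisons, and none passed the interaction, where 6 had an unadjusted limma p under 0.05, against 11.2% of all genes. The counts of this and the following lists are on the deposited scale, and the other scalings shift every gene of a comparison alike. Of all tested genes, 21.5% were higher and 31.1% lower with GW3965 in Villin-Cre mice, and 14.7% and 20.9% in floxed mice. Between genotypes the shares were 13.6% and 38.3% with GW3965, and 9.61% and 30.7% with vehicle.

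Genes of the microvillus itself were mostly higher as well. Of 15, 14 were higher and 1 lower with GW3965 in Villin-Cre mice (median 0.85), and 14 were higher in floxed mice (median 0.48). Pdzk1, a scaffold that holds transporters in the membrane, had log2 differences of 1.71 ± 0.08 in Villin-Cre and 2.19 ± 0.08 in floxed mice, and Myo7b, a myosin of the microvillus tips, of 0.89 ± 0.04 and 0.91 ± 0.04. The interaction over the list was mixed, 6 above 0 and 4 below. Of 10 transporters of digestion products, 9 were higher in each genotype (medians 1.01 and 0.78), among them Slc6a19, which takes up neutral amino acids, at 1.47 ± 0.05 in Villin-Cre and 0.92 ± 0.05 in floxed mice, and Slc15a1, the peptide transporter, at 2.16 ± 0.10 and 1.24 ± 0.10. Between Villin-Cre and floxed mice, 14 microvillus genes were higher and 1 lower with GW3965, and 13 higher with vehicle (medians 0.64 and 0.41), while 7 transporters were higher with GW3965, and 5 higher and 1 lower with vehicle (medians 0.40 and 0.29). Averaging the close libraries leaves 1 value per group and 2 in floxed GW3965. Fewer genes of both lists then stayed higher in each comparison, and fewer of all genes too.

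Factors known to control these enzymes had smaller median differences than the enzymes in the 4 comparisons of treatment and genotype, though not in the interaction. Cdx2 averaged 262 ± 2.59 CPM in Villin-Cre GW3965 and 158 ± 5.28 in Villin-Cre vehicle libraries (log2 difference 0.73 ± 0.05, adjusted p = 1.4e-09), and 215 ± 8.17 in floxed GW3965 and 171 ± 1.43 in floxed vehicle libraries (0.33 ± 0.05, adjusted p = 3.8e-05). Hnf4a was 0.41 ± 0.05 log2 higher with GW3965 in Villin-Cre and 0.21 ± 0.05 higher in floxed mice. Hnf4g, a factor related to Hnf4a, averaged 226 ± 12.8 CPM in Villin-Cre GW3965 and 147 ± 8.22 in Villin-Cre vehicle libraries (0.62 ± 0.08, adjusted p = 4.5e-06), and 192 ± 20.7 in floxed GW3965 and 174 ± 15.6 in floxed vehicle libraries (0.14 ± 0.08, adjusted p = 0.19). Between genotypes it was higher in Villin-Cre mice with GW3965 (0.24 ± 0.08, adjusted p = 0.017) and lower with vehicle (-0.24 ± 0.08, adjusted p = 0.024). Creb3l3, a membrane-bound factor of enterocytes and liver cells, was 2.29 ± 0.06 log2 higher in Villin-Cre and 1.07 ± 0.06 higher in floxed mice. Gata4, a factor of the proximal bowel that activates lactase there, averaged 11.6 ± 0.762 CPM in Villin-Cre GW3965 and 4.83 ± 0.386 in Villin-Cre vehicle libraries, and 3.54 ± 0.714 in floxed GW3965 and 31.5 ± 2.81 in floxed vehicle libraries. It was thus 1.19 ± 0.14 log2 higher with GW3965 in Villin-Cre mice, whereas the floxed difference was -3.00 ± 0.14. The floxed vehicle libraries, highest in Gata4, had 2.05 to 2.37 CPM of Lct. What part Gata4 has in the Lct levels was not tested. Over all 17 factors, 13 were higher and 2 lower with GW3965 in Villin-Cre mice (median 0.42) and 9 higher and 4 lower in floxed mice (median 0.21). Between genotypes 9 were higher and 4 lower in Villin-Cre mice with GW3965 (median 0.16), and 3 higher and 7 lower with vehicle (median -0.11). The interaction was above 0 for 10 and below for 2, against 14.6% and 18.4% of all genes. Its median was 0.24, and that of the 10 hydrolases was 0.23.

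Markers of other cells moved with the groups as well. The 8 smooth muscle markers were all lower with GW3965, against 31.1% of all tested genes in Villin-Cre and 20.9% in floxed mice, with a summed level of 887 to 908 CPM in Villin-Cre GW3965 and 6852 to 7187 in Villin-Cre vehicle libraries, and of 2481 to 3759 in floxed GW3965 and 6419 to 6505 in floxed vehicle libraries. None of the 8 was at 0 in a library. Their median log2 difference was -2.86 in Villin-Cre and -1.15 in floxed mice. Between genotypes all 8 were lower in Villin-Cre mice with GW3965, against 38.3% of all genes (median -1.70). With vehicle, none of the 8 markers passed in limma (median 0.11), against 30.7% of all genes lower. Of the 8, 1 had an unadjusted limma p under 0.05 there, against 47.8% of all genes. Averaging of close libraries leaves 1 value per group and 2 in floxed GW3965, and calls then fell over all genes. The markers kept lower calls only in the comparisons that hold Villin-Cre GW3965. All 7 fibroblast markers were also lower with GW3965 in both genotypes. Between genotypes with vehicle, 4 of them were higher in Villin-Cre mice (median 0.23), as were 4 of 8 T cell markers (median 0.66), against 9.61% of all genes. In that comparison 5 of 8 macrophage markers were lower (median -0.42). Of 10 crypt and cell division genes, 7 were lower in each of the 4 comparisons, and 1 was higher with GW3965 in Villin-Cre mice. The 10 markers shared by all intestinal epithelium summed to 7441 to 7568 CPM in Villin-Cre GW3965, 7015 to 7339 in Villin-Cre vehicle, 7535 to 8146 in floxed GW3965 and 7867 to 7944 in floxed vehicle libraries, and 4 were higher and 5 lower with GW3965 in Villin-Cre mice. Among them Epcam, an adhesion protein of epithelial cells, averaged 1826 ± 23.7 CPM in Villin-Cre GW3965 and 1037 ± 17.7 in Villin-Cre vehicle libraries (0.82 ± 0.04, adjusted p = 1.4e-10), and 1329 ± 37.2 in floxed GW3965 and 888 ± 13.2 in floxed vehicle libraries (0.58 ± 0.04, adjusted p = 2.7e-08). Between genotypes Epcam was higher in Villin-Cre mice by 0.46 ± 0.04 with GW3965 (adjusted p = 2.7e-07) and by 0.22 ± 0.04 with vehicle (adjusted p = 0.00073). When the libraries were scaled to equal levels of these epithelial markers, every call of a hydrolase in these 4 comparisons was kept. Mep1b (0.39, adjusted p = 0.0064, with GW3965) and Enpep (0.36, adjusted p = 0.002, with vehicle) were added as higher in Villin-Cre than in floxed mice, against 23.9% of all genes with GW3965 and 21.9% with vehicle. The mean log2 level of these markers, less its average over libraries, was -0.146 to -0.097 in Villin-Cre and 0.090 to 0.164 in floxed libraries. Within each genotype the treatments overlapped in it. The scaling could thus hardly move a GW3965 comparison, and it raised every gene in Villin-Cre against floxed mice. The higher calls that it kept are therefore no test of the part of epithelial content. What part shifts in cell markers have in the hydrolase levels was not tested.

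Markers of position along the bowel and the villus moved as well. Of 6 villus tip genes, 5 were higher with GW3965 and 1 lower in Villin-Cre mice, and 5 were higher in floxed mice. Of 5 villus base genes, 2 were higher and 3 lower in Villin-Cre mice, and 4 were lower in floxed mice. These counts stand against 21.5% of all genes higher and 31.1% lower in Villin-Cre mice, and 14.7% and 20.9% in floxed mice. The base genes summed to 1058 to 1082 CPM in Villin-Cre GW3965 and 4970.4 to 4996.5 in Villin-Cre vehicle libraries. In floxed mice they summed to 5656 to 7839 CPM with GW3965 and 12597 to 12974 with vehicle. Between genotypes with GW3965, 4 tip genes were higher in Villin-Cre mice (median 1.49), and 1 base gene was higher and 3 lower (median -0.55). With vehicle, 5 tip genes were higher (median 1.08) and all 5 base genes lower (median -1.06). Over all genes 13.6% were higher and 38.3% lower between genotypes with GW3965, and 9.61% and 30.7% with vehicle. Of 5 genes of the distal ileum, 5 were higher with GW3965 in Villin-Cre and 4 in floxed mice. The bile acid carrier Fabp6 was higher by 2.08 ± 0.11 log2 in Villin-Cre mice, with an interaction of 1.98 ± 0.16 (adjusted p = 8.8e-08), so this marker of the distal bowel and Lct were both highest in the Villin-Cre GW3965 libraries. The 3 genes of the proximal bowel (Gata4, Onecut2 and the fatty acid carrier Fabp1) summed to 55.8 to 61.2 CPM in Villin-Cre GW3965, 13.3 to 15.2 in Villin-Cre vehicle, 17.3 to 31.9 in floxed GW3965 and 38.2 to 50.7 in floxed vehicle libraries. Of them, 2 were higher and 1 lower with GW3965 in Villin-Cre mice (median 1.19), and 1 higher and 1 lower in floxed mice (median -0.58). Between genotypes 2 were higher in Villin-Cre mice with GW3965, and 1 higher and 2 lower with vehicle (median -1.19). The part of villus and bowel position in the hydrolase levels was not tested.

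**Figure D4:**
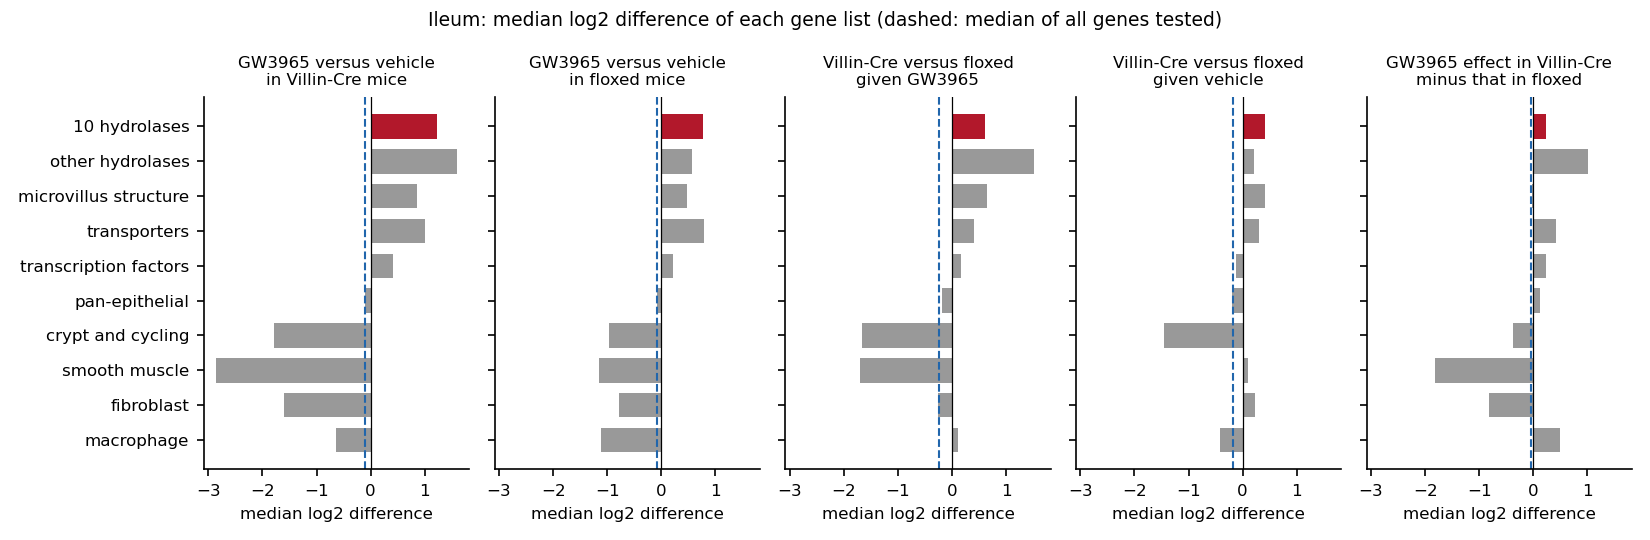
Median log2 difference of each gene list in the ileum for the same 5 comparisons, with the 10 hydrolases in red, the other lists in grey and the median of all 18656 tested genes as a dashed line. The 10 hydrolases, the other hydrolases, the microvillus genes and the transporters lie to the right of the dashed line in the first 4 panels, and crypt and cycling genes to its left.

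The genes with a pattern over the 4 group means most like the average of the 10 hydrolases were Acot4, Naaladl1, P2ry2, Ifrd1, Podn, Phospho1, Gnb5 and Slc6a19, with root-mean-square differences of 0.048 to 0.094 log2, out of 11103 candidates, protein-coding genes that reached 5 CPM or more in their highest group. Naaladl1 and Slc6a19 also stand on the lists above. Among the 10 themselves Sis lay nearest to their average (0.21 log2) and Lct farthest from it (1.50 log2). These are descriptions over 4 group means, with no test.

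In the liver the 10 hydrolases took 0.0478% to 0.0489% of the assigned reads in Villin-Cre GW3965, 0.0434% to 0.0437% in Villin-Cre vehicle, 0.0490% to 0.0599% in floxed GW3965 and 0.0595% to 0.0605% in floxed vehicle libraries. Lct, Alpi, Mep1a, Mep1b and Sis lay below the filter, at no more than 0.650 CPM in any library, and were not tested. A count of 0, as Alpi had in 9 of the 12 liver libraries, allows a level of up to 0.0928 to 0.113 CPM (3 reads), for counting error alone. Treh, Mgam, Anpep, Dpp4 and Enpep were tested.

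Mgam stood at 112, 121 and 116 CPM in Villin-Cre GW3965 liver, against 88.9, 90.6 and 83.0 CPM in Villin-Cre vehicle liver. It stood at 153, 206 and 218 CPM in floxed GW3965 liver, against 191, 192 and 192 CPM in floxed vehicle liver. All Villin-Cre libraries lay below all floxed ones, and replicate 1 of the floxed GW3965 group lay below the vehicle libraries while the other 2 lay above them. Enpep stood at 48.3, 50.1 and 51.3 CPM in Villin-Cre GW3965 liver, against 38.3, 39.6 and 40.5 CPM in Villin-Cre vehicle liver. It stood at 56.4, 66.9 and 61.8 CPM in floxed GW3965 liver, against 78.8, 81.3 and 78.6 CPM in floxed vehicle liver. The Enpep groups were all separate, and GW3965 went with higher values in Villin-Cre and lower values in floxed liver.

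Treh stood at 6.27, 6.22 and 6.84 CPM in Villin-Cre GW3965 liver, against 10.6, 8.16 and 8.42 CPM in Villin-Cre vehicle liver. It stood at 2.95, 2.95 and 2.88 CPM in floxed GW3965 liver, against 3.95, 3.84 and 3.68 CPM in floxed vehicle liver. In this tissue Treh was thus lower with GW3965 in both genotypes, where in the ileum it was higher. Anpep averaged 236 ± 9.37 CPM in Villin-Cre GW3965, 233 ± 3.00 in Villin-Cre vehicle, 189 ± 4.20 in floxed GW3965 and 224 ± 8.21 in floxed vehicle liver, and Dpp4 averaged 73.0 ± 3.08, 65.3 ± 0.926, 115 ± 19.3 and 102 ± 3.28 CPM in the same groups (SD, n = 3 each).

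**Figure D5:**
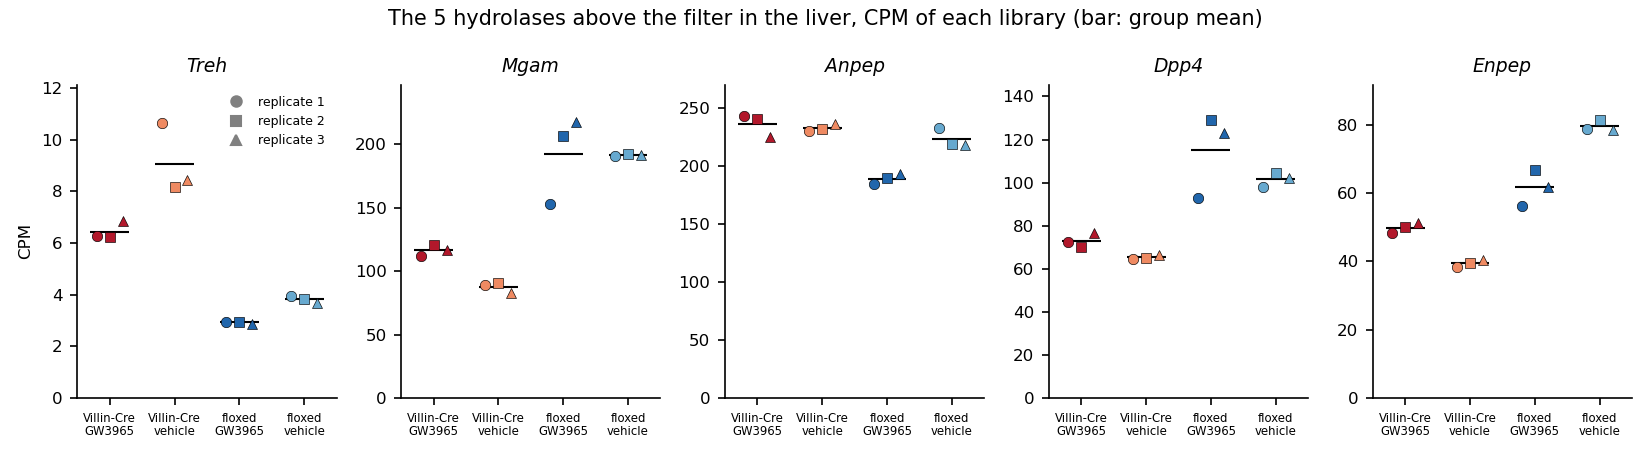
Level of the 5 hydrolases tested in the liver, in CPM, in every liver library by group, with group means as bars and axes that start at 0. All 6 Villin-Cre libraries lie above the floxed libraries for Treh and below them for Mgam and Dpp4, and replicate 1 of the floxed GW3965 group (circle) lies lowest of its group for Mgam, Dpp4 and Enpep.

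With GW3965 in Villin-Cre liver, 2 of the 5 were higher, Mgam (0.41 ± 0.10, adjusted p = 0.015) and Enpep (0.33 ± 0.06, adjusted p = 0.0031), against 2.85% of the 17520 genes tested, and Treh was lower (-0.46 ± 0.12, adjusted p = 0.025), against 9.03%. In floxed liver 3 were lower, Treh (-0.34 ± 0.12, adjusted p = 0.048), Anpep (-0.24 ± 0.04, adjusted p = 0.00096) and Enpep (-0.37 ± 0.06, adjusted p = 0.00037), against 19.7%. The call of Treh was lost when any of 5 libraries was left out in Villin-Cre liver (adjusted p 0.05 to 0.12) and any of 11 in floxed liver (adjusted p 0.055 to 0.12), and scaling by the median of gene ratios ended it in both (-0.36, adjusted p = 0.082, in Villin-Cre and -0.29, adjusted p = 0.088, in floxed liver). That of Mgam was lost without any of 3 libraries (adjusted p 0.053 to 0.07). Without replicate 1 of the floxed GW3965 group, Mgam (0.15, adjusted p = 0.0047) and Dpp4 (0.31, adjusted p = 1e-06) were higher with GW3965 in floxed liver. The interaction was above 0 for Mgam (0.42 ± 0.14, adjusted p = 0.045, lost without any of 9 libraries, adjusted p 0.062 to 0.11), Anpep (0.26 ± 0.06, adjusted p = 0.01) and Enpep (0.70 ± 0.09, adjusted p = 6.9e-05), against 10.2% of genes. Scaling by the median of gene ratios took the share of calls that were higher with GW3965 from 24.0% to 59.9% in Villin-Cre and from 34.5% to 46.4% in floxed liver.

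Between genotypes in the liver, Treh was higher in Villin-Cre mice by 1.02 ± 0.12 with GW3965 and by 1.14 ± 0.12 with vehicle (adjusted p = 4.7e-06 and 1.9e-06), and Anpep by 0.32 ± 0.04 with GW3965 (adjusted p = 2.4e-05). These are 2 of 5 with GW3965, against 40.9% of genes, and 1 of 5 with vehicle, against 45.1%. Mgam, Dpp4 and Enpep were lower in both (adjusted p of 0.00064 or lower), with log2 differences of -0.71, -0.64 and -0.30 with GW3965, against 15.0% of genes, and of -1.13 and -0.63 for Mgam and Dpp4 with vehicle, where Enpep stood at 0.499 times its floxed level (adjusted p = 6.5e-09), against 11.7%. The share of calls higher in Villin-Cre liver was 73.1% with GW3965 and 79.3% with vehicle, but 50.6% and 49.3% after scaling by the median of gene ratios. That scaling left the calls of Treh, Mgam, Dpp4 and Enpep and ended that of Anpep with GW3965 (0.08, adjusted p = 0.16). It also made Anpep lower in Villin-Cre liver with vehicle (-0.23, limma adjusted p = 0.00054), where the deposited scale gave 0.06 (adjusted p = 0.27). With the close libraries averaged none of the 5 passed in any liver comparison, and 0, 0, 3, 4 and 1 of 5 had an unadjusted limma p under 0.05 (GW3965 in Villin-Cre, GW3965 in floxed, genotype with GW3965, genotype with vehicle, interaction), against 1.20%, 7.49%, 27.2%, 18.5% and 2.95% of all genes. On the adjusted p, 6.95% of all genes were higher and 2.59% lower between genotypes with GW3965, 0.685% and 0.491% with vehicle, 0.0171% each way for GW3965 in floxed mice, and 0% for GW3965 in Villin-Cre mice and for the interaction.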

How the data were processed

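RNA was extracted with RNeasy, depleted of ribosomal RNA with RiboErase, primed with random hexamers and read on a NovaSeq from both ends of each fragment for 150 bases, per the labels' protocols. The authors aligned reads with STAR 2.5.1a to GRCm38 and counted them with featureCounts 1.4.6-p5 of the Subread package, per the submitters' processing notes; the sources used here do not give the annotation, the strand setting or the log formula, so reads of overlapping or antisense genes cannot be told apart. The deposited tables hold log2 values per gene and library. The lowest deposited log2 value, -5.62, stood for 0 reads, and subtracting it on the linear scale gave counts per 1000000 reads (CPM) that were whole multiples of 1 read (within 0.05) for 100% of low values. Of 40757 rows, 276 repeats were left out. An excess of even reads (68.7% to 71.3%, 50% if reads were independent) shows that both mates were counted, so intervals and floors from counts cover counting error only and are too narrow.

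Genes with at least 0.5 CPM in at least 3 libraries of a tissue were tested (18656 in ileum, 17520 in liver) with limma 3.58.1 (R 4.3.3) on log2(CPM + 0.5), with a mean per group over all 12 libraries of the tissue, a trended empirical Bayes variance and Benjamini-Hochberg adjustment over all genes, at 0.05. Such differences understate the change of low genes. The procedure was tested on simulated data. Ratios within a library were compared with an exact two-sided permutation test, adjusted over 8 comparisons. The alternatives were 2 other scalings, a pseudocount of 2, no filter, the deposited log2 values, voom on the recovered reads, the compared groups alone, a replicate block, each library left out, averaging of libraries whose variance was under 4 times the Poisson variance, and the longest transcript as gene length. Averaging left 5 values in 4 groups. Same-numbered libraries did not deviate together (r from -0.04 to 0.055 over 18 ileal pairs, and from -0.026 to 0.031 in the liver), so the numbers were not taken to pair libraries. The members and lists were chosen with earlier results of these data known. Of each other list, up to 4 genes with the smallest p in the comparison are named, plus Abca1, Gata4, Cdx2, Hnf4a, Hnf4g, Vil1 and Epcam (1 further gene of that rule is not reported here), and the 8 genes with the most similar pattern. Promoter windows came from RefSeq, and gene positions and lengths from GENCODE, both on GRCm38.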

Additional observations from a re-analysis of the deposited data

Results flagged for a closer look

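The response to GW3965 differed between Villin-Cre and floxed mice, by the test of the interaction itself with limma, for 5 hydrolases in the ileum. The log2 differences, Villin-Cre response minus floxed response, were 5.27 for Lct (adjusted p = 4.2e-08), 0.72 for Sis (adjusted p = 0.002), 0.52 for Enpep (adjusted p = 0.00066), 0.32 for Alpi (adjusted p = 0.0023) and 0.26 for Treh (adjusted p = 0.032). In the liver they were 0.70 for Enpep (adjusted p = 6.9e-05), 0.42 for Mgam (adjusted p = 0.045) and 0.26 for Anpep (adjusted p = 0.01). Of the 5 hydrolases tested in both tissues, Enpep was the 1 past the threshold in both; Lct, Sis and Alpi were not tested in the liver. Averaging the close libraries leaves 1 value per group and 2 in floxed GW3965. These calls were then lost, as were the interaction calls of all genes. In the ileum the interaction was also above 0 for Vil1 (0.28, limma adjusted p = 0.0091) and Epcam (0.23, adjusted p = 0.0087).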

How the results depend on the processing

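Over the 10 hydrolases, 5 comparisons and all alternatives, 966 ileal values kept direction and side of the threshold, 59 lost it, 13 gained it and 2 turned direction; in the liver these counts were 425, 56, 3 and 11. With the close libraries averaged, the hydrolases called in the ileum were 4, 2, 3, 0 and 0, against 10, 9, 9, 9 and 5 (GW3965 in Villin-Cre, GW3965 in floxed, genotype with GW3965, genotype with vehicle, interaction), and in the liver 0 in each, against 3, 3, 5, 4 and 3. Calls over all genes fell in the averaged fit too, in every comparison of both tissues. The lower counts are thus not particular to the hydrolases. That fit has 1 value per group and 2 in floxed GW3965, so its spread comes from floxed GW3965 alone. In each tissue this is the gap between the library that stood apart and the average of the rest of that group. With no filter on low values the ileal interaction had 3 calls and liver genotype with GW3965 had 8. These counts have no share of all genes beside them, so they are descriptions only. Leaving out 1 library gave 4 to 8 calls for the ileal interaction and 1 to 4 for GW3965 in Villin-Cre liver. With a replicate block, which the numbers do not support as pairs, the counts were 10, 9, 9, 8 and 6 in the ileum and 3, 2, 5, 4 and 3 in the liver.

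Values that turned direction over single libraries left out, given as ranges, were ileal Mep1b between genotypes with GW3965 (-0.023 to 0.25), the ileal interaction of Mgam (-0.093 to 0.016), liver Anpep with GW3965 in Villin-Cre mice (-0.00094 to 0.052), liver Mgam with GW3965 in floxed mice (-0.11 to 0.15) and the liver interaction of Dpp4 (-0.15 to 0.084). Scaling by the median of gene ratios gave 0.046 for that value of Mgam, 0.035 for that of Dpp4 and -0.23 for liver Anpep between genotypes with vehicle, and averaging gave 0.068 for Dpp4. The cause was not tested. Calls of Sis between genotypes with vehicle were also lost with a pseudocount of 2 (adjusted p = 0.05), no filter (0.3), voom (0.068) and the block (0.053).

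Depth limits Lct most, with 6 to 24 reads in the Villin-Cre vehicle ileum, and the 5 hydrolases under the filter in the liver, where 3 reads are 0.0928 to 0.113 CPM. An exact two-sided test of 3 against 3 libraries cannot go below p = 0.1.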
